A study of Homo sapiens with 3 samples.

Results

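Wild-type ZFP36L1 was compared with its Ala mutant, a form in which residues are replaced by alanine, by the RNA that each protein recovered from the same kind of cell lysate. The comparison used 2 of the 3 libraries of the study, and the genes were those with a mean of at least 10 estimated counts over both, 14063 of the 52989 genes in the joined tables. Each library came from a lysate of J82 cells, an established human bladder cancer line, grown to 90% confluence. The bait was glutathione S-transferase (GST) alone, GST fused to wild-type ZFP36L1, or GST fused to ZFP36L1-Ala. The labels do not say which residues were replaced. The bait was a fusion protein added to lysate, so the values describe binding in an extract and not in living cells. With 1 library per bait the spread between replicates is unknown, and every ratio below describes these libraries. The wild-type and mutant tables carry the same run code in their names, and the GST table carries another. GST is given beside the results as the background of the bait tag, and its run cannot be told apart from the bait.

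ZFP36L1 belongs to the tristetraprolin family of RNA-binding proteins. Its paired CCCH zinc fingers bind AU-rich elements in the 3' untranslated regions (3' UTRs) of mRNAs, and the protein brings deadenylases and decapping factors to the bound mRNA, which is then degraded. Cytokine, growth factor and early response mRNAs are the best known clients, and AU-rich elements are also found in mRNAs of cell cycle and metabolic genes. The core of the element is the heptamer UAUUUAU. It lies within the nonamer UUAUUUAUU and around the pentamer AUUUA.

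The sites below are shown because they belong to mRNAs on either side of the comparison: the first 6 come from genes higher with wild-type ZFP36L1 and the last 3 from genes lower with it. Each stretch is 27 bases of a 3' UTR, written 5′ to 3′ as RNA, with the UAUUUAU heptamers in capitals. Overlapping heptamers run together in capitals. They were read from GENCODE 29 transcripts.
ZFP36L1: uaucaaaacgUAUUUAUugccaaacua
CXCL1: agaagucuucUAUUUAUUUAUUUAUuc
CXCL2: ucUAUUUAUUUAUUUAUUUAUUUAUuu
PMAIP1: ggaauaauuuUAUUUAUuuugccuauu
HSPA13: uuuagugggcUAUUUAUaaauagucuu
ATP6V1C2: gugacaguugUAUUUAUuuuuuuaagu
MED25: caguuagcuuUAUUUAUuugugguguu
LMNB2: uuuuaauggaUAUUUAUuuuuuuacau
BCL2L1: agcgugucugUAUUUAUgugugaggag

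In GRCh38 the ZFP36L1 stretch lies at chr14:68788337-68788363 on the minus strand, that of CXCL1 at chr4:73870671-73870697 on the plus strand, and that of CXCL2 at chr4:74097587-74097613 on the minus strand. The PMAIP1 stretch lies at chr18:59903962-59903988 (plus), that of HSPA13 at chr21:14371496-14371522 (minus) and that of ATP6V1C2 at chr2:10783394-10783420 (plus). MED25 was read at chr19:49839121-49839147 (plus), LMNB2 at chr19:2429767-2429793 (minus) and BCL2L1 at chr20:31664683-31664709 (minus). All 9 stretches lie within a single exon. The whole 3' UTR held 8 heptamers in CXCL2, 4 in CXCL1, 3 in ZFP36L1 and PMAIP1, 2 in HSPA13 and LMNB2, and 1 in ATP6V1C2, MED25 and BCL2L1. The heptamer was found on the transcript strand in 3620 of the 11687 measured genes with an annotated 3' UTR (30.97%). A match is a description of the sequence and not evidence of binding. In ZFP36L1 and MED25 the most abundant transcript (577 and 829 bases) was shorter than the 3' UTR that was read (1871 and 1559 bases). Their counts were therefore not shown to come from RNA with the printed site.

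The wild-type library held 19845386 estimated counts, the mutant library 19153483 and the GST library 19137867. Scaling between libraries used the trimmed mean of M values (TMM), and ratios are log2 of wild type over mutant. Higher and lower mean a ratio of at least 2-fold in that direction whose 95% counting interval excluded 1. By that rule 29.9% of all measured genes were higher with wild-type ZFP36L1 and 36.0% were lower. These figures are the background for each count below. The balance between them turned with totals that left out the most abundant genes (5127 higher and 4620 lower). It also turned with TPM (4376 and 3828 with a pseudocount of 0.5, 4611 and 3954 with 0.1). The TPM counts used the 2-fold cut without an interval, over 11915 genes with a mean TPM of at least 1. Rule and genes therefore differed there as well as the scaling. Because counts were scaled to library size, a larger recovery of some RNAs and a smaller recovery of the others cannot be told apart. Class medians are therefore stated as the distance from the median over all genes. Of the marker genes of bladder epithelium, KRT7, KRT8 and KRT18 had at least 165 counts in every library. CDH1 had 7, 4 and 13 counts with GST, wild type and mutant, EPCAM 11, 55 and 3, and UPK1A 21, 20 and 24. GATA3, KRT5, KRT19, TP63, UPK2 and UPK3A had at most 6 counts in any. Of the mesenchymal markers VIM had 41484, 2581 and 29118 counts, FN1 573, 1403 and 263, and CDH2 186, 150 and 109. COL1A1 had 49, 23 and 36, and COL1A2 and SPARC had at most 2. Markers of leukocytes, erythroid cells and hepatocytes had at most 76 counts, in SERPINA1. The ratio also moved with base composition: the Spearman correlation of the ratio with transcript GC content was -0.675 across the 14063 genes, which are not independent. Where this moved a class median by over 1.5 times or turned its sign, the median is also given with a fit removed, that is, after subtracting from each ratio the value predicted from the GC content and length of the transcript. Where another setting did so, its value or the range over all alternatives is given.

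The genes with the most extreme ratios were largely those that one library did not hold. Of the 10 protein-coding genes ranked highest, 6 had no count with the mutant, and of the 10 ranked lowest, 7 had none with the wild-type protein. ADIPOR1, an adiponectin receptor, had 147 estimated counts with GST, 15235 with wild-type ZFP36L1 and 0 with the mutant. With 3 counts put in place of the 0 it was 4287-fold higher, and the lower bound of its interval was log2 11.77. SFT2D3, a membrane trafficking protein, had 0, 261 and 0 counts in the same order. With the same replacement it was 73.4-fold higher (lower bound log2 5.89). Both had counts with the wild-type protein and none with the mutant, and an estimate of 0 does not show that the RNA was absent. The ADIPOR1 counts were in a retained-intron transcript. Among genes counted in each library, the V-ATPase subunit ATP6V1C2 had 433 counts with GST, 5716 with the wild type and 192 with the mutant (log2 4.65, 4.44 to 4.87). NBR1, a receptor of selective autophagy, had 92, 794 and 14 counts (log2 5.54, 4.83 to 6.46). EHBP1, which links endocytic vesicles to actin, had 1, 281 and 5 (log2 5.44, 4.33 to 7.20).

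At the other end, CCDC61, a centriole protein, had 432 counts with GST, 0 with the wild type and 774 with the mutant. With 3 counts in place of the 0 it was 306-fold lower (upper bound of the interval log2 -7.95). ADAR, the adenosine deaminase that edits double-stranded RNA, had 68, 7 and 1516 counts (log2 -7.90, -9.32 to -6.96). RHOF, a small GTPase of filopodia, had 496, 8 and 1285 (log2 -7.48, -8.79 to -6.59). In all of these the wild type was the low library. In ADAR the mutant also stood above GST (log2 4.61), farther than the wild type stood below it (log2 -3.27). Of the lowest 10, 7 shared over 50% of their 31-base words with transcripts of other genes, and so did 2 of the highest 10, so that their reads could have been split between genes. These include SCO2 (97.1% shared) and CDK11A (70.8%) among the lowest.

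**Figure D1:**
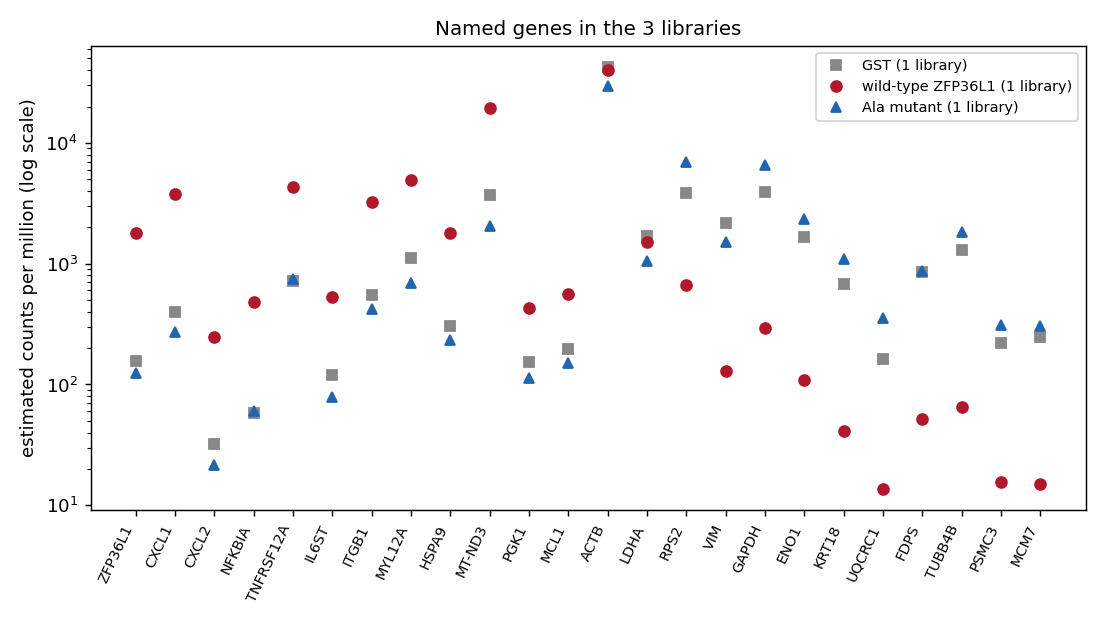
Estimated counts scaled to the library total (CPM, log scale) of 24 named genes in the GST (grey squares), wild-type (red circles) and Ala mutant (blue triangles) libraries, 1 library each. From ZFP36L1 to MCL1 the wild-type library lies above the other two, and from RPS2 to MCM7 it lies below both. ACTB and LDHA differ by less than 2-fold between wild type and mutant.

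Functional classes separated into those above and those below the rest of the transcriptome. Of 47 classes, 27 had a median above that of all genes and 20 a median below it. The highest belonged to the ZFP36 family itself, to listed targets of the family, to negative feedback regulators and to signalling ligands. The lowest belonged to keratins and lamins, cytosolic ribosomal proteins, the nuclear-encoded respiratory chain and the proteasome. With the fit on GC content and length removed 37 classes kept their sign and 10 changed it, with a minimum mean of 100 counts 5 changed it, and 34 kept it under every alternative tried.

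**Figure D2:**
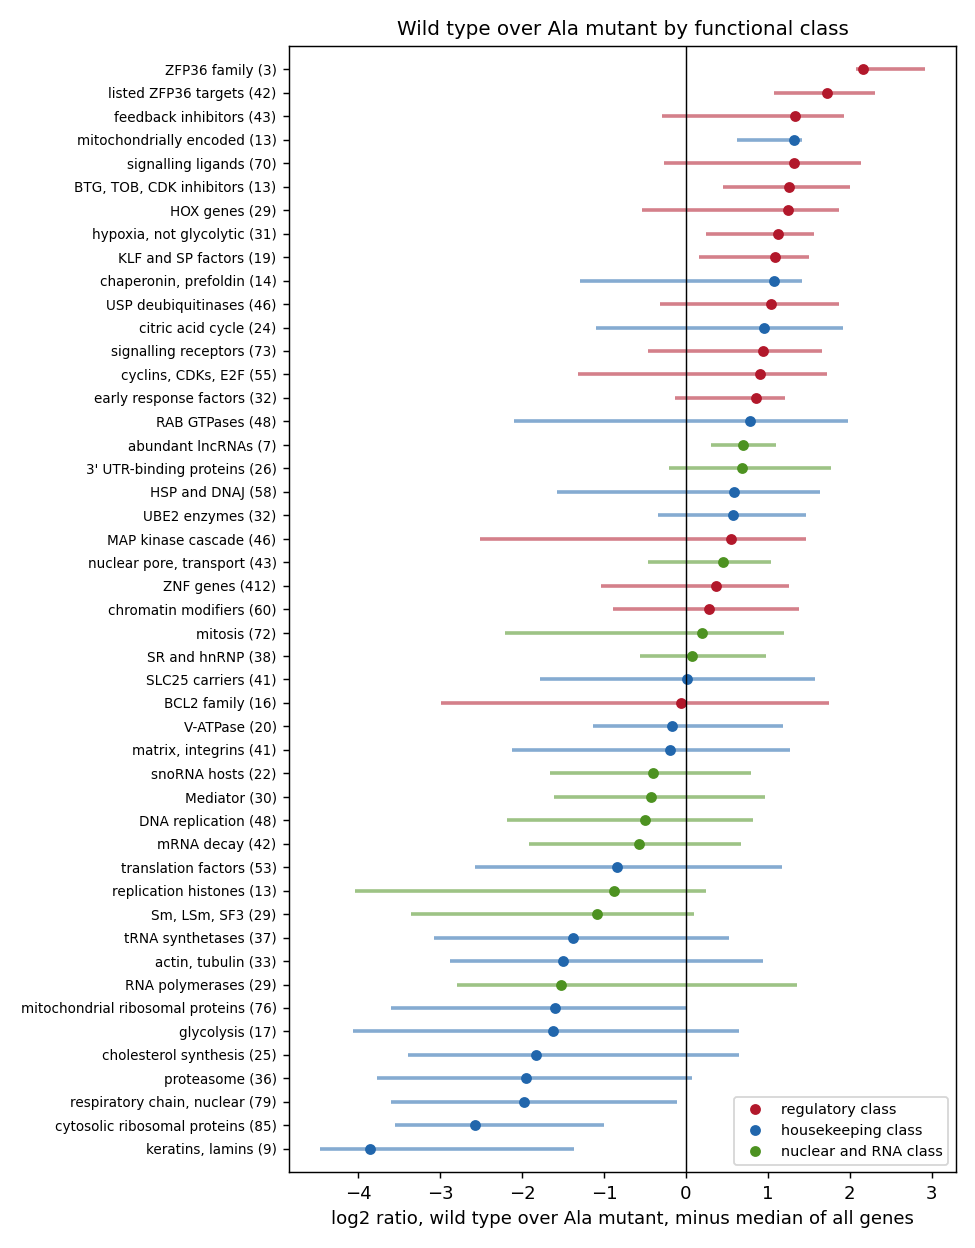
Median (point) and quartiles (line) over genes of the log2 ratio of wild type over Ala mutant, minus the median of all genes (vertical line at 0), for 47 classes, with the number of measured genes in parentheses. Most regulatory classes (red) lie to the right and most housekeeping classes (blue) to the left, from 2.16 for the ZFP36 family to -3.85 for keratins and lamins.

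The mRNAs of the ZFP36 family were recovered far more with the wild-type protein. ZFP36L1 had 3012 estimated counts with GST, 35580 with wild-type ZFP36L1 and 2401 with the mutant (log2 3.65, 3.58 to 3.71). Its TPM was 42.0, 1633 and 30.3 in the same order. The most abundant ZFP36L1 transcript was 577 bases long at 66.9% GC, shorter than the 1871-base 3' UTR that was read. The bait was itself a form of ZFP36L1, and whether reads came from sequence coding for the bait was not tested. ZFP36, which encodes tristetraprolin, had 851, 3849 and 843 counts (log2 1.95, 1.84 to 2.06), and ZFP36L2 had 213, 869 and 169 (log2 2.12, 1.88 to 2.36). In each, GST and the mutant lay close together and the wild type stood apart. The class median of 2.16 became 4.10 with the fit removed. Of 42 measured genes on a list of ZFP36 targets recalled from the literature, 32 were higher and 2 lower (median 1.73, or 2.33 with the fit removed), the lower ones being CCNE2 (log2 -2.04) and PLAU (log2 -1.40). CCNE2, a cyclin, had no heptamer, and PLAU, the urokinase protease, had 2. The listed targets took 0.236% of all counts with GST, 1.07% with the wild type and 0.209% with the mutant. This list overlaps the ZFP36 family and the signalling ligands, so that ZFP36L1 and CXCL1 count in more than 1 class.

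Signalling ligands were among the classes farthest above all genes: 41 of 70 were higher and 14 lower, with a median 1.32 above that of all genes. CXCL2, a chemokine that attracts neutrophils, had 615 counts with GST, 4899 with the wild type and 411 with the mutant (log2 3.33, 3.19 to 3.48). CXCL1, its close relative, had 7660, 74495 and 5231 (log2 3.59, 3.55 to 3.63). Neither chemokine was above GST with the mutant. The ligands were not uniform. ANGPTL4, a secreted inhibitor of lipoprotein lipase, had 310, 30 and 697 counts (log2 -4.76, -5.36 to -4.26). The growth factor IGF2 had 670, 70 and 1150 (log2 -4.27), and 97.8% of its 31-base words also occur in another gene entry. WNT5B, a WNT ligand with 2921, 4324 and 4601 counts, differed little (log2 -0.33). Of the 40 ligands with a heptamer 32 were higher and 4 lower, while of the 30 without one 9 were higher and 10 lower. Among all measured genes with a heptamer 56.1% were higher and 9.4% lower, and among those with a 3' UTR but no heptamer 21.0% and 47.0%. These shares are the background for each split by site below.

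Receptors of the same pathways were less one-sided, with 32 of 73 higher, 16 lower and a median 0.94 above all genes, or 0.49 with the fit removed. TNFRSF12A, the receptor of the cytokine TWEAK, had 13815 counts with GST, 85729 with the wild type and 14245 with the mutant (log2 2.35, 2.32 to 2.37). IL6ST, the shared signal-transducing receptor of the interleukin-6 family, had 2282, 10530 and 1509 (log2 2.56). The BMP receptor ACVR1 stood at log2 2.55. FZD2, a WNT receptor, stood at log2 -4.97, and IL17RC, a subunit of the interleukin-17 receptor, at log2 -4.43. Neither FZD2 nor IL17RC had an AUUUA pentamer in the 3' UTR, and TNFRSF12A, IL6ST and ACVR1 each had 1 heptamer. The 3' UTR read was only 184 bases long in FZD2 and 24 in IL17RC. It was 557 bases in TNFRSF12A, 7641 in IL6ST and 1082 in ACVR1.

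Negative feedback regulators, which are induced by a pathway and then restrain it, had 26 of 43 members higher and 8 lower, at 1.34 above all genes. NFKBIA, the inhibitor that holds NF-kB in the cytoplasm, had 1104 counts with GST, 9548 with the wild type and 1166 with the mutant (log2 2.79, 2.70 to 2.88). SPRY4, an inhibitor of receptor tyrosine kinase signalling, stood at log2 1.36, and IER3, an early response protein, at log2 1.87. The NF-kB inhibitors split. NFKBIE, which also binds NF-kB, had 532, 40 and 669 counts (log2 -4.29), and TNIP1, a ubiquitin-binding partner of the deubiquitinase A20, had 1473, 121 and 2286 (log2 -4.48). In the MAP kinase cascade, where 19 of 46 genes were higher and 18 lower (median 0.55, 0.12 with the fit removed and -0.26 with a minimum mean of 100 counts), the paired kinases of the middle tier also split. MAP2K1 had 1364, 5637 and 866 counts (log2 2.46) and 2 heptamers, whereas MAP2K2 had 2139, 192 and 4354 (log2 -4.74) and none. MAPK9, a JNK kinase, stood at log2 2.15 and MAP3K11 at log2 -4.10.

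Transcription factor classes lay above all genes, except that the ZNF genes turned below with the fit removed. Early response factors had 14 of 32 higher and 6 lower (median 0.86, or 2.24 with the fit removed). In this class CTGF, a secreted matricellular protein listed with them for its rapid induction, stood at log2 2.78 and its relative CYR61 at log2 2.58. IER2, an early response nuclear protein, had 2491, 171 and 2187 counts (log2 -3.92) and no pentamer. KLF and SP factors, zinc finger proteins that bind GC-rich promoters, had 10 of 19 higher and 0 lower (median 1.09, or 0.36 with the fit removed), led among genes counted in each library by SP4 (log2 2.15). KLF16 stood at log2 -0.76, short of 2-fold. HOX genes, which set position along the body axis, had 16 of 29 higher and 7 lower (median 1.25, or 1.82 with the fit removed). HOXB2 had 2078, 7556 and 1369 counts (log2 2.22) and 2 heptamers, while HOXB13 had 122, 37 and 238 (log2 -2.91) and none. All 7 lower HOX genes lacked the heptamer. Among 412 genes named ZNF, 121 were higher and 105 lower, and their median of 0.37 above all genes turned to -0.16 with the fit on GC content and length removed and was 0.56 with no minimum count.

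Proteins that halt or drive the cell cycle differed in how one-sided they were. Of 13 antiproliferative BTG and TOB proteins and CDK inhibitors, 7 were higher and 0 lower, at 1.26 above all genes, or 0.41 with a minimum mean of 100 counts. BTG3 had 1440 counts with GST, 4439 with the wild type and 963 with the mutant (log2 1.96), and the CDK inhibitor CDKN2C stood at log2 2.0. CDKN2A, which encodes p16, stood near 0 at log2 0.15. Of 55 cyclins, CDKs and E2F factors 23 were higher and 16 lower, at 0.91, or 0.14 with the fit removed. E2F7, a repressor of E2F targets, stood at log2 2.84 and CCNG2 at log2 2.72, against -4.04 for CDK10. TFDP1, the dimer partner of E2F factors, had 1865, 11245 and 1868 counts (log2 2.35). The 3' UTR read for TFDP1, of 1203 bases and 35.1% GC, had no heptamer. The most abundant TFDP1 transcript, at 58.2% GC, was 444 bases long and too short to hold that 3' UTR.

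In the BCL2 family, the regulators of apoptosis at the mitochondrion, 7 of 16 genes were higher and 7 lower. PMAIP1, the pro-apoptotic protein NOXA, had 588 counts with GST, 2415 with the wild type and 255 with the mutant (log2 3.0, 2.81 to 3.19). MCL1, the anti-apoptotic protein that NOXA binds, had 3789, 11094 and 2901 (log2 1.69). BAK1, a pore-forming effector, had 513, 32 and 636 (log2 -4.53), and BOK, its relative, stood at log2 -4.34. Pro-apoptotic members were found on both sides. BCL2L1, which encodes BCL-XL, had 7402, 4657 and 9703 counts (log2 -1.30) although its 3' UTR holds a heptamer, and the fit removed put it at 0.33. The class median of -0.06 became 0.96 with the fit removed and ran from -0.34 to 1.02 over all alternatives.

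Hypoxia response genes other than glycolytic enzymes had 21 of 31 higher and 4 lower (median 1.12, or 0.64 with the fit removed). MXI1, a transcriptional repressor that binds MAX, had 343 counts with GST, 2624 with the wild type and 236 with the mutant (log2 3.23). KDM3A, a histone demethylase, stood at log2 2.27. EGLN2, an oxygen-sensing prolyl hydroxylase that shares 90.2% of its 31-base words with a readthrough gene, stood at log2 -3.90, and PFKFB4, which makes the activator of phosphofructokinase, at log2 -3.60. Chromatin modifiers had 20 of 60 higher and 14 lower (median 0.28, from 0.04 to 0.78 over the alternatives). TET2 (log2 2.81) and KAT6B (log2 2.75) were among the higher ones. HDAC10 (log2 -5.25, 77.2% of its words shared) and HDAC5 (log2 -4.71) were among the lower ones. Of the 25 chromatin modifiers with a heptamer 15 were higher and 0 lower, and of the 35 without it 5 were higher and 14 lower, near the shares over all genes. USP deubiquitinases had 23 of 46 higher and 8 lower (median 1.04, or 0.35 with the fit removed). USP12 had 1189, 8520 and 991 counts (log2 2.86) and USP16 173, 794 and 58 (log2 3.52), while USP5 had 2761, 118 and 2692 (log2 -4.75).

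Glycolysis had the widest split by site of all classes compared. GAPDH had 74476 counts with GST, 5785 with the wild type and 124535 with the mutant (log2 -4.67, -4.71 to -4.63), with 51.5% of its words shared, mainly with pseudogenes. ENO1, the common enolase, had 31801, 2160 and 45210 (log2 -4.63), and PFKL, the liver-type phosphofructokinase, 732, 76 and 1273 (log2 -4.30). Wild type was the low library in these enzymes. Their isozymes lay on the other side: ENO2, the neuronal enolase, had 1600, 5949 and 1700 counts (log2 1.56), and PFKM, the muscle-type phosphofructokinase, had 477, 2173 and 370 (log2 2.31). PGK1, phosphoglycerate kinase, had 2922, 8590 and 2177 (log2 1.74) and HK2, a hexokinase, 225, 636 and 239 (log2 1.17). In all, 4 of 17 glycolytic genes were higher and 9 lower. The 4 higher ones each had a heptamer in the 3' UTR that was read, while the 9 lower ones had none. In PGK1 the most abundant transcript (960 bases) was shorter than that 3' UTR (3466 bases). Its counts were therefore not shown to come from RNA with the site. HK1, with 1 heptamer, stood at log2 -0.69. PFKL, HK1, HK2 and ENO2 were singled out after their values had been seen. The class took 1.38% of counts with GST, 0.431% with the wild type and 1.77% with the mutant, and its median of -1.63 became -0.55 with the fit removed and lay between -0.82 and -0.73 with TPM or a single transcript per gene.

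The citric acid cycle differed from glycolysis, with 12 of 24 genes higher, 7 lower and a median 0.95 above all genes. MDH1, the cytosolic malate dehydrogenase, had 238 counts with GST, 5901 with the wild type and 542 with the mutant (log2 3.20, 3.07 to 3.33). The mitochondrial enzyme MDH2 had 1456, 661 and 1773 (log2 -1.67), named here after its value had been seen. DLD, the shared dehydrogenase subunit of the 2-oxoacid complexes, stood at log2 2.66, and SDHD, a membrane anchor of succinate dehydrogenase, at log2 2.18. IDH3G (log2 -4.95) and IDH3B (log2 -4.53) encode subunits of the NAD-dependent isocitrate dehydrogenase. Neither MDH1 nor DLD had a heptamer. In cholesterol synthesis 4 of 25 genes were higher and 13 lower (median -1.83, or -0.42 with the fit removed). SC5D, a late desaturase, had 785, 2720 and 308 counts (log2 2.90) and 1 heptamer. MVD (log2 -4.61) and FDPS (16337, 1027 and 16643 counts, log2 -4.26), enzymes of earlier steps, had none.

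Nuclear-encoded genes of the respiratory chain, made for the same complexes as the mitochondrially encoded ones, had 6 of 79 members higher and 51 lower (median -1.98, or -0.88 with the fit removed). UQCRC1, a core subunit of complex III, had 3086 counts with GST, 270 with the wild type and 6767 with the mutant (log2 -4.89), and NDUFA13 of complex I had 2627, 165 and 4347 (log2 -4.96, 73.5% of its words shared). Within complex I NDUFB5 (log2 2.71), NDUFB3 (log2 2.29) and NDUFB4 (log2 1.29) were higher, and each lacked the heptamer. The 13 mitochondrially encoded mRNAs, which have no annotated 3' UTR here, had 7 higher and 0 lower at 1.32 above all genes. They took 8.4% of counts with GST, 14.5% with the wild type and 5.91% with the mutant. MT-ND3 had 71080, 387155 and 39398 counts (log2 3.05), and MT-CO2, at log2 -0.71 with 50.5% of its words shared, was the one with a ratio under 1. The SLC25 carriers of the inner membrane were balanced, with 17 of 41 higher and 14 lower (median 0.02, from -0.08 to 0.95 over the alternatives and 0.53 with the fit removed).

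Protein synthesis and degradation machinery lay below the other genes, to differing extents. Of 85 cytosolic ribosomal protein genes 1 was higher, RPL7L1 (log2 1.65), and 64 were lower (median -2.57, or -1.25 with the fit removed). RPS2 had 73965 counts with GST, 13144 with the wild type and 133549 with the mutant (log2 -3.59), and RPL15 had 47211, 84256 and 68848 (log2 0.05). The class took 13.3% of counts with GST, 5.0% with the wild type and 17.4% with the mutant. Both share sequence with pseudogenes and other genes, RPS2 for 83.0% of its 31-base words and RPL15 for 65.4%. Mitochondrial ribosomal proteins had 6 of 76 higher and 45 lower (median -1.6, or -0.88 with the fit removed), with MRPL33 at log2 2.26 and MRPL23 at log2 -4.74. Translation factors had 15 of 53 higher and 25 lower (median -0.84). EIF2S1, the regulatory subunit of eIF2, had 1661, 7444 and 1548 counts (log2 2.02), and EEF1A2, an elongation factor, 1902, 88 and 2999 (log2 -5.33). EIF5A, with 54.1% of its words shared, stood at log2 -2.13 with no heptamer, and its paralog EIF5A2, with 6 heptamers, at log2 2.14.

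Of 37 tRNA synthetase genes 4 were higher and 21 lower (median -1.38), from AIMP1, a scaffold of the synthetase complex (log2 2.20), to VARS (log2 -4.37). In the proteasome, 4 of 36 subunits were higher and 23 lower (median -1.96). PSMC3, an ATPase of the regulatory particle, had 4227 counts with GST, 309 with the wild type and 5901 with the mutant (log2 -4.50), whereas PSMA1 of the core had 1244, 5630 and 1031 (log2 2.20). UBE2 enzymes, which carry ubiquitin to its ligases, did not share the position of the proteasome: 12 of 32 were higher and 4 lower (median 0.57, from 0.33 to 0.88 over the alternatives), and UBE2N, which makes K63-linked chains, had 3116, 18145 and 2590 counts (log2 2.56). Chaperonin and prefoldin subunits had 7 of 14 higher and 4 lower (median 1.08, or 0.55 with the fit removed), split between CCT6A (log2 1.49) and CCT3 (log2 -3.89) of the same chaperonin. Heat shock and DNAJ proteins had 24 of 58 higher and 19 lower (median 0.59, or 0.25 with the fit removed). HSPA9, the mitochondrial HSP70, had 5874, 35868 and 4445 counts (log2 2.77), HSPA13 stood at log2 3.34, and the small heat shock protein HSPB1 had 6171, 602 and 12784 (log2 -4.65).

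Among cytoskeletal and trafficking genes, MYL12A, a regulatory light chain of nonmuscle myosin, had 21268 counts with GST, 98497 with the wild type and 13217 with the mutant (log2 2.65). Its relative MYL9, named after its value had been seen, had 623, 40 and 738 (log2 -4.43). TUBB4B, a beta-tubulin, had 24634, 1297 and 35221 (log2 -5.01), the actin-sequestering TMSB4X stood at log2 1.39, and ACTB at log2 0.25. The class had 8 of 33 genes higher and 17 lower, and its median of -1.50 became 0.72 with the fit on GC content and length removed and lay between -0.86 and -0.66 with TPM or a single transcript per gene. Keratins and lamins had 1 of 9 higher and 7 lower (median -3.85, or -2.03 with the fit removed). KRT18, a keratin of simple epithelia, had 12980, 823 and 20794 counts (log2 -4.90), and VIM, the mesenchymal filament protein, 41484, 2581 and 29118 (log2 -3.74). The B-type lamins split: LMNB1 had 918, 1771 and 494 counts (log2 1.6) with no heptamer, and LMNB2, with 2, had 0 with the wild type and 127 with the mutant, at least 50.2-fold lower. KRT18 shares 66.3% of its 31-base words with other genes.

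Matrix proteins and integrins had 13 of 41 higher and 16 lower, and their median of -0.19 became 0.34 with the fit removed and -1.26 with a minimum mean of 100 counts. The integrin ITGB1 had 10585 counts with GST, 64448 with the wild type and 8018 with the mutant (log2 2.76), and the collagen COL18A1 had 1225, 93 and 2165 (log2 -4.78). RAB GTPases, which direct vesicle traffic, had 21 of 48 higher and 16 lower (median 0.79, 0.05 with the fit removed and 0.40 with TPM and a pseudocount of 0.5). RAB6A, with 2 heptamers, stood at log2 2.38, and RAB11B, with none, at log2 -4.20. In the V-ATPase, the proton pump of endosomes and lysosomes, 6 of 20 subunits were higher and 6 lower, and the median of -0.17 became 0.22 with the fit removed and ran from -0.38 to 0.37 over all alternatives. ATP6V1A of the catalytic head had 1456, 6290 and 848 counts (log2 2.65), and ATP6V0D1 of the membrane sector had 759, 112 and 1081 (log2 -3.51).

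Classes that act on RNA held genes on both sides. Of 26 proteins that bind AU-rich and other 3' UTR elements, 12 were higher and 2 lower (median 0.69, -0.08 with the fit removed and 0.45 with a minimum mean of 100 counts). CPEB2, a regulator of cytoplasmic polyadenylation, had 119 counts with GST, 354 with the wild type and 43 with the mutant (log2 2.78). YBX1, with 55.4% of its words shared, stood at log2 -0.81 and IGF2BP1 at log2 -1.66. The mRNA decay machinery, through which ZFP36 proteins act, had 8 of 42 higher and 15 lower (median -0.57, from -0.92 to -0.34 over the alternatives). The deadenylases CNOT6 (log2 2.28) and CNOT8 (log2 2.04) were higher. EDC4, the scaffold of the decapping complex, had 208, 6 and 327 counts (log2 -5.89), and 87.6% of the words of its main transcript also occur in another gene. SR and hnRNP proteins had 9 of 38 higher and 7 lower, with SRSF2 at log2 1.71, PTBP1 at 1.65 and HNRNPL at -2.69, and their median of 0.08 ran from -0.60, with the fit removed, to 0.28. Sm, LSm and SF3 proteins of the spliceosome had 5 of 29 higher and 15 lower (median -1.08, -0.59 with the fit removed and -1.91 with a single transcript per gene), and RNA polymerase subunits 9 of 29 higher and 15 lower (median -1.52, -0.37 with the fit removed and -0.61 with no minimum count).

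The remaining nuclear classes were mixed as well. Nuclear pore and transport proteins had 11 of 43 higher and 8 lower (0.45, -0.14 with the fit removed and 0.23 with a minimum mean of 100 counts), with the pore subunit NUP160 at log2 2.58 and the importin IPO4, with 88.5% of its words shared, at log2 -5.01. Mediator had 7 of 30 higher and 10 lower (-0.43, from -0.68 to -0.03 over the alternatives). MED14, its backbone, had 672 counts with GST, 2445 with the wild type and 476 with the mutant (log2 2.12). MED25 had 579, 39 and 901 (log2 -4.75). The 3' UTR read for MED25, of 1559 bases, holds a nonamer. The most abundant MED25 transcript was only 829 bases long, so its counts were not shown to come from RNA with that site. DNA replication genes had 9 of 48 higher and 18 lower (-0.50, or -0.25 with no minimum count), from MCM10 (log2 2.83) to POLD1 (log2 -5.34), and mitosis genes 19 of 72 higher and 28 lower (0.20, from -0.43 to 0.42 over the alternatives), from MAD2L1 (log2 2.69) to ANAPC2 (log2 -5.23). Replication-dependent histones, most of whose mRNAs end in a stem-loop instead of a poly(A) tail, had 3 of 13 higher and 6 lower. Their median was -0.88, from -2.73 to 0.009 over the alternatives. HIST1H2AC and HIST2H2BE, both higher, had annotated 3' UTRs of 1039 and 1801 bases. Whether the counted RNAs had a poly(A) tail was not tested. Host genes of small nucleolar RNAs had 5 of 22 higher and 8 lower (median -0.40, -0.21 with the fit removed and -0.17 with no minimum count), with SNHG8 at log2 2.53. Of 7 abundant long non-coding RNAs 2 were higher, among them OIP5-AS1 (log2 1.46), and 0 were lower. Their median of 0.70 became -0.48 with the fit removed and 0.21 with a minimum mean of 100 counts.

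The AU-rich motif in the 3' UTR ordered the ratios more finely than presence of a heptamer alone. Of 3784 genes without an AUUUA pentamer 7.93% were higher and 70.6% lower, with a median log2 ratio of -2.71. Of 4283 genes with a pentamer but no heptamer 32.6% were higher and 26.1% lower, with a median of 0.34. A heptamer outside a nonamer was found in 2667 genes, of which 55.5% were higher and 9.45% lower (median 1.16), and a nonamer in 953, of which 58.0% were higher and 9.34% lower (median 1.23). The largest step was thus between no pentamer and a pentamer, and the nonamer differed little from the heptamer. Set beside GST, the wild-type library ran from a median of -2.21 without a pentamer to 1.0 with a nonamer, and the mutant library from 0.43 to -0.19, with -0.21 at the heptamer. Both comparisons share the GST library. The median GC content of the 3' UTR was 51.3% without a pentamer, 40.2% with the pentamer alone, 37.5% with the heptamer and 38.1% with the nonamer, and the median length of the 3' UTR was 314.5, 1129, 2152 and 2613 bases in the same order. The part of either in these medians was not tested.

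**Figure D3:**
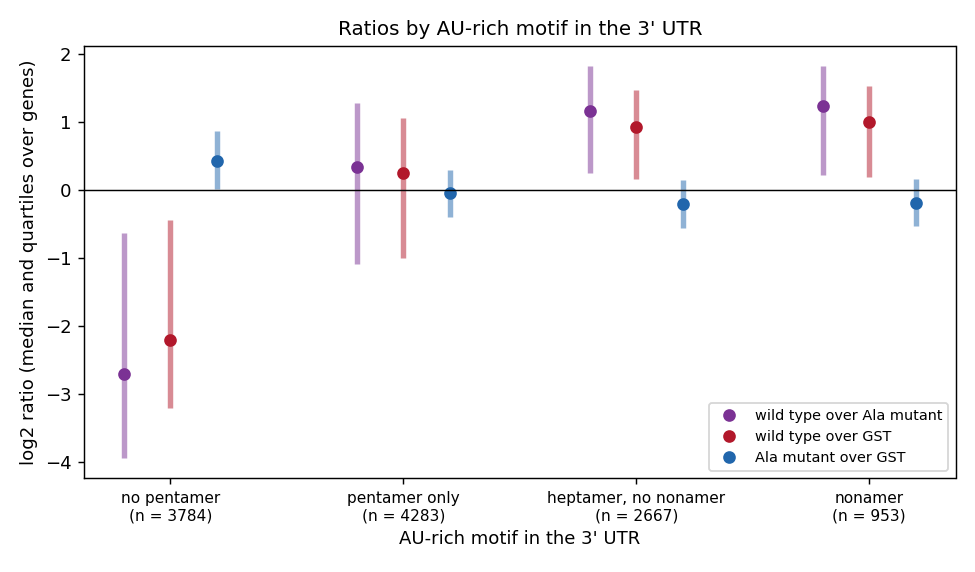
Median (point) and quartiles (line) over genes of the log2 ratio of wild type over mutant, wild type over GST and mutant over GST, by the longest AU-rich motif in the 3' UTR. Wild type over mutant runs from -2.71 to 1.23, and mutant over GST stays between 0.43 and -0.21.

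Members of one class with and without a heptamer differed in nearly all classes. In 40 classes at least 3 genes had a heptamer and at least 3 did not, and in 38 of these the median was higher with the heptamer. The median difference over the 40 classes was 1.67 and the largest 5.17, in glycolysis (1.56 with and -3.60 without). Cholesterol synthesis (0.91 and -3.25), actin and tubulin genes (1.76 and -1.89) and RNA polymerase subunits (1.07 and -2.33) followed. In early response factors the medians with and without a heptamer were 0.82 and 0.83, and in hypoxia genes 1.05 and 1.20. Ribosomal proteins with a heptamer were still low, at -1.92 for 6 genes against -2.76 for 79. Genes with a heptamer had the lower median transcript GC content in 37 of the 40 classes. With the fit on GC content and length removed the median was higher with the heptamer in 35 classes, and the median difference was 0.71.

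**Figure D4:**
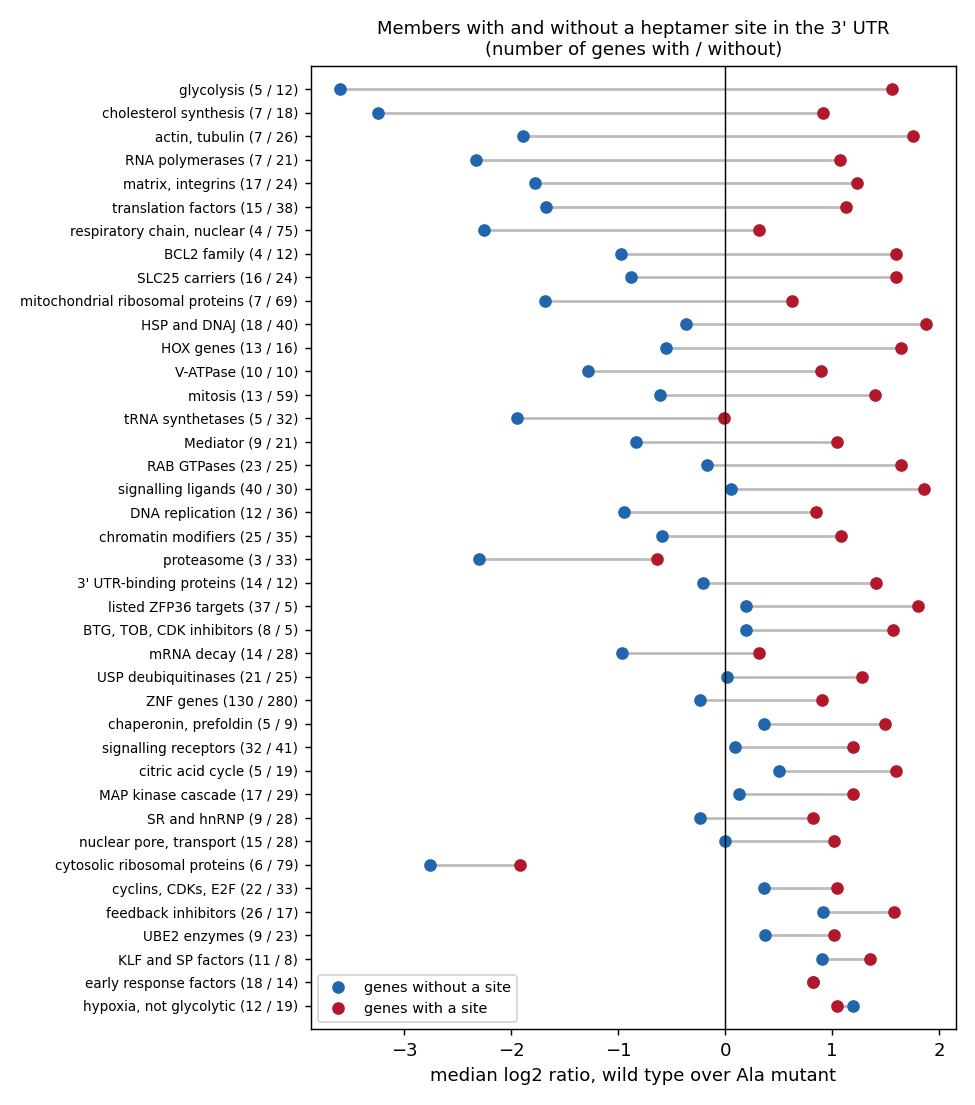
Median log2 ratio of wild type over Ala mutant for members without (blue) and with (red) a heptamer in the 3' UTR, for 40 classes with at least 3 genes of each kind; the numbers of genes with and without it are in parentheses. Red lies to the right of blue in 38 classes, most widely in glycolysis.

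Genes were also divided into 3 groups of equal size by the GC content of the 3' UTR. In the low group (up to 37.0% GC) the median log2 ratio was 1.63 with a heptamer and 0.88 without, and 78.1% of genes with the heptamer were higher. In the middle group the medians were 0.97 and -0.07. In the high group (over 48.2% GC) they were -0.42 and -3.12, so that genes with a heptamer had a ratio under 1 at the median, and 36.1% of them were lower. Genes with a heptamer stood above those without in each group, and both kinds moved down with GC content. The 3' UTR was also longer with a heptamer, at a median of 2213 against 492 bases in the low group. In the middle group it was 2802 against 811 bases, and in the high group 1461 against 575. The part of length in these medians was not tested. LMNB2 and BCL2L1, whose sites are printed above, are examples of genes that have a heptamer and were nonetheless lower. MED25 was lower too, but its most abundant transcript was shorter than the 3' UTR that holds its site.

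Transcripts of the same gene offered a comparison within genes. Genes were taken in which both the protein-coding transcripts with a heptamer in the 3' UTR and those without one had a mean of at least 20 counts. The ratio was higher for the transcripts with a heptamer in 434 of these genes (71.5%) and not in 173, with a median difference of 1.12 and quartiles of -0.23 and 3.15. RPL23, a ribosomal protein, had 736 counts with GST, 1985 with the wild type and 716 with the mutant for its transcripts with a heptamer (log2 1.23), and 62348, 19397 and 61576 for those without (log2 -1.91). HNRNPA1, a splicing regulator with 68.4% of its words shared, stood at log2 1.26 with and -0.56 without, and FTH1, the ferritin heavy chain, at -0.98 and -2.69. EEF2, an elongation factor, went the other way, at -1.63 with and 0.29 without. Transcripts with a heptamer usually had the longer 3' UTR. In 662 genes with no heptamer in any measured transcript, those with the longer 3' UTR had the higher ratio in 448 (67.7%), with a median difference of 0.91. In the 47 genes where the transcripts with a heptamer did not have the longer 3' UTR, they were higher in 35, with a median difference of 1.08. The split of counts between transcripts of one gene is an estimate from shared reads.

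**Figure D5:**
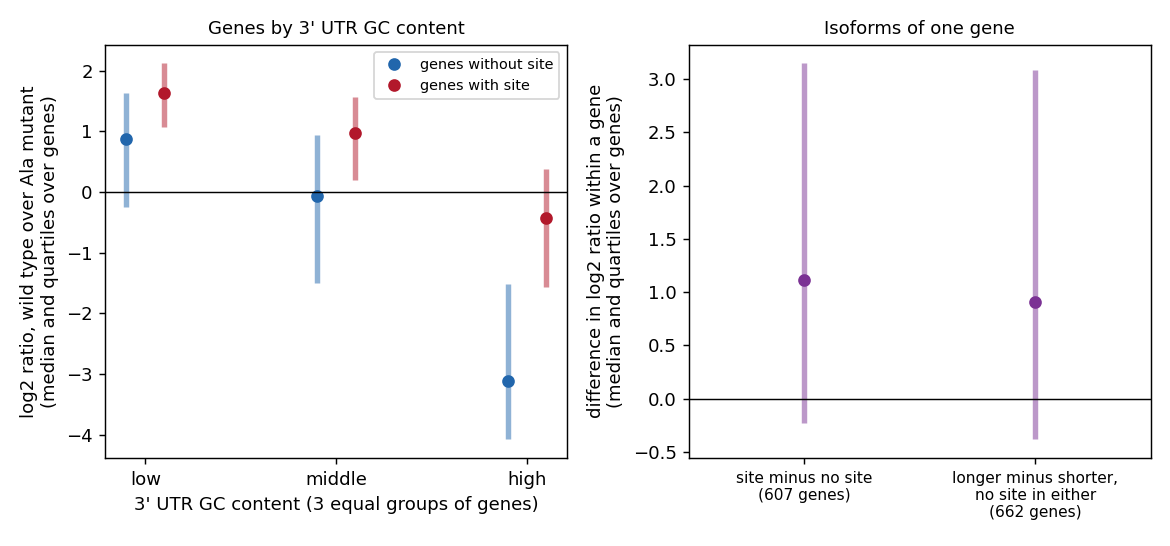
Left, median (point) and quartiles (line) over genes of the log2 ratio of wild type over Ala mutant by group of 3' UTR GC content, for genes with and without a heptamer. Right, the difference of the log2 ratio between transcript groups within a gene, for genes with both kinds of transcript and for 662 genes by 3' UTR length with no heptamer. Genes with a heptamer lie higher in each group, and the medians within genes are 1.12 and 0.91.

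By kind of transcript, 3036 retained-intron transcripts had a median log2 ratio of -1.39, with 18.1% higher and 53.5% lower, and 1713 transcripts annotated as targets of nonsense-mediated decay one of -1.33, with 23.8% higher and 52.7% lower. The 17440 protein-coding transcripts stood at -0.57, with 29.4% higher and 45.7% lower. ADIPOR1, the gene ranked highest, had its counts in a retained-intron transcript. By kind of gene, 24 of 507 processed pseudogenes were higher and 367 lower, with a median at -2.57 from that of all genes, the same as that of the cytosolic ribosomal protein genes. Long intergenic RNAs, with 128 of 495 higher and 113 lower, and antisense RNAs, with 176 of 750 higher and 246 lower, lay near the median of all genes, at 0.08 and -0.13. Reads of antisense genes cannot be told apart from those of their partners where the counting did not use strand, which is not given in the sources used here.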

How the data were processed

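RNA recovered with GST, wild-type ZFP36L1 and the Ala mutant was read on a BGISEQ-500 sequencer, 1 library for each bait. Per the submitters' processing notes, the tools were kallisto and DESeq2 and the build hg19. Tool versions, the annotation and what DESeq2 was used for are not given in the sources. The deposited tables hold, per the file headers, an estimated count and a TPM value (abundance per length, scaled to a fixed total) for each of 196354 transcripts.

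Transcript identifiers, without their version, were looked up in GENCODE 29 (GRCh38). Of them 181854 (92.62%) were found, 93.17% of these with the same length, and the others held 3.79% of counts with wild type and 4.20% with mutant. The counts were added up per gene, rounded, and kept where the mean over wild type and mutant reached 10. TMM (edgeR 4.0.16) gave factors of 1.07 and 0.937, and 0.5 was added before taking log2. Intervals at 95% are exact Clopper-Pearson intervals on the split of counts and cover counting error only. Where a library is at 0, the fold was computed with 3 counts in that library. Such a fold is not a bound, and the interval bounds given beside it lie nearer to a ratio of 1. Ratios over GST used TMM over the 3 libraries. No p-value was computed, since there was 1 library per bait.

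For the 3' UTR, the coding transcript of each gene with the highest mean TPM was taken, and sites were read on its strand. Transcript GC content and length are those of the transcript of any kind with the highest mean TPM, which can be a different one. The fit regressed the log2 ratio on cubic terms of transcript GC content and log2 length. Sequence sharing is the share of 31-base words of a gene's transcript found in transcripts of other genes.

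The comparison and its 47 gene lists were chosen with earlier results of these data known, and 34 names of other kinds of protein were removed from the lists after values had been seen. Named genes are the top 10 and bottom 10 protein-coding genes by ratio, ranked by the interval bound nearest to 1, the 2 members of each class with the most counts, the 2 highest and the 2 lowest, the ZFP36 family, and the 6 genes with the most counts in the isoform comparison. The text names some of these, and others only where stated. Alternatives were size factors of DESeq2 1.42.0, scaling to total counts, the same without the 20 most abundant genes, ribosomal RNA and mitochondrial genes, TPM with pseudocounts of 0.5 and 0.1 and a minimum mean of 1, no minimum and a minimum of 100 counts, a prior count of 5, protein-coding genes only, 1 transcript per gene, and the fit removed.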

Additional observations from a re-analysis of the deposited data

How the results depend on the processing

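No paired analysis was possible because each bait had 1 library. With a minimum mean of 100 counts 3321 genes were higher and 3328 lower, against 4205 and 5069 with a minimum of 10; fewer genes were tested there. Under the other alternatives the counts ran from 3225 to 5127 higher and from 3597 to 6276 lower, and 24 to 30 of the 47 classes lay above all genes. The genes tested under them numbered from 11780 (protein-coding only) to 23489 (no minimum count). With TPM and with the fit removed, the 2-fold cut was used without an interval. Totals without the most abundant genes moved the median log2 ratio of all genes by 0.31 and turned the balance to 5127 higher and 4620 lower. With the deposited TPM the median moved by 0.38 with a pseudocount of 0.1, and the balance turned to 4611 higher and 3954 lower, or 4376 and 3828 with a pseudocount of 0.5. Of the 47 classes 13 changed sign relative to all genes under at least 1 alternative. With the fit on GC content and length removed, the ZNF genes turned to -0.164 and BCL2L1 to 0.33; the cause was not tested. Depth limits genes with few counts, whose intervals are wide.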
